A study of Homo sapiens with 18 samples.

Results

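The 41 genes described here encode the DNA replication machinery and its G1/S regulators. They were taken by symbol from a deposited count table of 63241 genes, and each symbol matched 1 row. The set holds 4 origin licensing genes (ORC1, ORC6, CDC6, CDT1), 7 MCM genes (MCM2 to MCM7 and MCM10), and CDC45 with 4 GINS subunits. The clamp PCNA comes with 4 subunits of its loader (RFC2 to RFC5), and 6 genes encode polymerase and primase subunits (POLA1, POLA2, PRIM1, POLD1, POLE, POLE2). FEN1 and LIG1 process Okazaki fragments, RRM1, RRM2, TYMS and TK1 supply nucleotides, and UHRF1 and DNMT1 maintain DNA methylation. The regulators are the activators E2F1 and E2F2, the atypical repressors E2F7 and E2F8, and the cyclins CCNE1 and CCNE2. RNA was measured in LNCaP, a human prostate cancer line from a lymph node metastasis that carries PSMA, and in PC-3, a line from a bone metastasis that lacks it. The series asks about genistein and baicalein as radiosensitizers for a PSMA-directed radioligand, and no library is labelled as irradiated. There were 6 groups of 3 libraries, all labelled wild type: untreated LNCaP, LNCaP given genistein at 10 or 20 µM, LNCaP given baicalein at 10 or 20 µM, and untreated PC-3. Exposure lasted 24 h. Titles call the control libraries untreated, but the protocol text has controls given DMSO as vehicle. No label says that replicates were separate cultures, and the p-values therefore reflect the library-to-library spread alone, possibly a technical one.

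As background, replication origins are licensed in G1, when the origin recognition complex, CDC6 and CDT1 load the MCM helicase onto DNA. At the start of S phase CDC45 and GINS join MCM to make the active helicase, polymerase alpha and primase start each strand, and polymerases delta and epsilon extend it with the PCNA clamp. Many of these genes are transcribed under E2F control once cyclin E and its kinase inactivate the retinoblastoma protein, so their transcripts rise in cells that enter S phase. In bulk RNA a smaller share of cells in S phase and less RNA of these genes per cell cannot be told apart.

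Total counts ran from 10013567 to 18445711 per library, and the 41 genes took 0.155% ± 0.0032 (SD, n = 3) of them in untreated LNCaP. Mitochondrial transcripts took 4.16% to 6.35% of counts in 5 groups and 10.5% to 14.5% with baicalein 20 µM, and their part in the results was not tested beyond the alternative that removes them. The LNCaP marker KLK3, which encodes PSA, was at 1376 to 1628 CPM (counts scaled to library size) in untreated LNCaP, 721 to 757 with genistein 20 µM, 131 to 248.5 with baicalein 20 µM and 1.25 to 2.28 in PC-3. FOLH1, which encodes PSMA, was at 859.5 to 908 CPM in untreated LNCaP, 918 to 984 with genistein 20 µM, 317 to 349 with baicalein 20 µM and 0.650 to 1.81 in PC-3. The PC-3 markers VIM, CAV1, CD44 and EGFR summed to at most 31.6 CPM in any LNCaP library and to at least 2330 CPM in PC-3. EGFR alone did not separate every library: genistein 10 µM replicate 2 had 25.35 CPM, within the 17.97 to 27.09 CPM of PC-3. Fibroblast, leukocyte and endothelial lists each summed to at most 17.0 CPM in every library. All 41 genes passed the filter on low counts in both fits. Exon bases are shared with another annotated gene for 18 of the 41, among them MCM2, GINS4, POLA2, RRM2, CCNE2 and TYMS, and reads there may belong to either gene. The library kit does not mark strand, so strand cannot separate the reads for any of these 18. For POLA2, PRIM1, POLD1, FEN1, RRM2 and DNMT1 an overlapping gene also lies on the same strand.

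Promoters are shown for 6 of the genes with the deepest falls at 20 µM, 1 for each of 6 role groups, since these genes moved together. Each line gives the 250 bases before the annotated start (RefSeq, GRCh38.p14), 5′ to 3′ on the gene's strand, with matches to an E2F-type word or to a CCAAT box in capitals. The E2F-type words searched were TTTCCCGC, TTTCGCGC, TTTGCCGC and TTTGGCGC, and the CCAAT box was the 5 letters CCAAT, all on both strands with overlapping matches counted. The regions are chr2:10122489-10122738 (plus), chr19:4909251-4909500 (plus), chr11:65261712-65261961 (plus), chr3:127598161-127598410 (plus), chr22:19479670-19479919 (plus) and chr1:23531234-23531483 (minus).
RRM2: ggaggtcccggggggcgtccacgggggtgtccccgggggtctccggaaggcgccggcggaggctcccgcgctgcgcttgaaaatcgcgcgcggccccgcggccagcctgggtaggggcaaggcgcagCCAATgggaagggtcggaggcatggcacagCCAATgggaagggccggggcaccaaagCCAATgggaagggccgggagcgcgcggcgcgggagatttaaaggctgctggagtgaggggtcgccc
UHRF1: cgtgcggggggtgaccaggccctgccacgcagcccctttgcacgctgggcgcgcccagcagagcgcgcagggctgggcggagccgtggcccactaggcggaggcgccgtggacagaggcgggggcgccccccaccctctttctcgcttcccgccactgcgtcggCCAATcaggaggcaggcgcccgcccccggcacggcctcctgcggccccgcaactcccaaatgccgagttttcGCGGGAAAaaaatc
POLA2: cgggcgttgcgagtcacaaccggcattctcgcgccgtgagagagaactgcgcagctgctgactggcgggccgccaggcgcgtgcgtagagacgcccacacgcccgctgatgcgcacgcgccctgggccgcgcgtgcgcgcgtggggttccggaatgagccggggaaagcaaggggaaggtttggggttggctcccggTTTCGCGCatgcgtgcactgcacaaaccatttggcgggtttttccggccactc
MCM2: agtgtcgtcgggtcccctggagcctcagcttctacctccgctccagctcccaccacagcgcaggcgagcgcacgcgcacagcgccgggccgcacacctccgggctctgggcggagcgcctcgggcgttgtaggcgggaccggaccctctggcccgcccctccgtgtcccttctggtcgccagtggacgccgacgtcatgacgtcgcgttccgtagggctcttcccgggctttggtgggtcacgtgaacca
CDC45: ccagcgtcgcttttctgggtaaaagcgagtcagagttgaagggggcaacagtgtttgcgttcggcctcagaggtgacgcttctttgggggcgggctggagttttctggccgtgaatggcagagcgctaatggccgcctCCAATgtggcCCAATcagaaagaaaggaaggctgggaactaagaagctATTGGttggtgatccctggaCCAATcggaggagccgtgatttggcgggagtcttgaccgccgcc
E2F2: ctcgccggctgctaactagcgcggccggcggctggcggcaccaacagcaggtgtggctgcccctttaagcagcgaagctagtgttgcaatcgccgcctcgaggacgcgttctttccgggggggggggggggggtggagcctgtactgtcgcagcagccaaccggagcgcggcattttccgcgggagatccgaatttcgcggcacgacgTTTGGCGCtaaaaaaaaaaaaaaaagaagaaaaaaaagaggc

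RRM2 carried 3 CCAAT boxes and no E2F-type word in these bases, and CDC45 carried 4 CCAAT boxes. UHRF1 had 1 E2F-type word 14 to 7 bases before its start, POLA2 had 1 at 53 to 46 bases before, and E2F2 had 1 at 42 to 35 bases before. MCM2 had no match in the printed bases and 2 overlapping E2F-type words just after the start, at bases 3 to 10 and 7 to 14. Over the window from 250 bases before to 50 after the start, 21 of the 36 members found in the RefSeq table held an E2F-type word (58.3%), against 3.3% of all 27305 promoters. A CCAAT box was present in 20 of the 36 (55.6%), against 35.7% of all promoters. MCM4, MCM5, GINS4, E2F8 and CCNE2 had no entry. The median log2 fold change with baicalein 20 µM was -1.07 over the 21 genes with an E2F-type word and -1.32 over the 15 without, and with genistein 20 µM it was -0.47 and -0.57. A match is a description of the letters and not a binding site.

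Levels in untreated LNCaP are compared per kilobase of exon. PCNA stood highest at 103 ± 11.5 CPM per kb (SD, n = 3), followed by RRM1 at 24.5 ± 3.75, FEN1 at 23.96 ± 0.575 and MCM7 at 23.4 ± 1.04. The last 3 differed by less than their spread. The lowest members were regulators and 1 polymerase subunit: POLE2 at 1.55 ± 0.0922, E2F8 at 1.42 ± 0.0753, E2F7 at 1.27 ± 0.226 and E2F2 at 0.972 ± 0.124 CPM per kb. With baicalein 20 µM the lowest were UHRF1 at 0.246, E2F8 at 0.231 and E2F2 at 0.186 CPM per kb, while PCNA remained highest at 76.6.

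**Figure D1:**
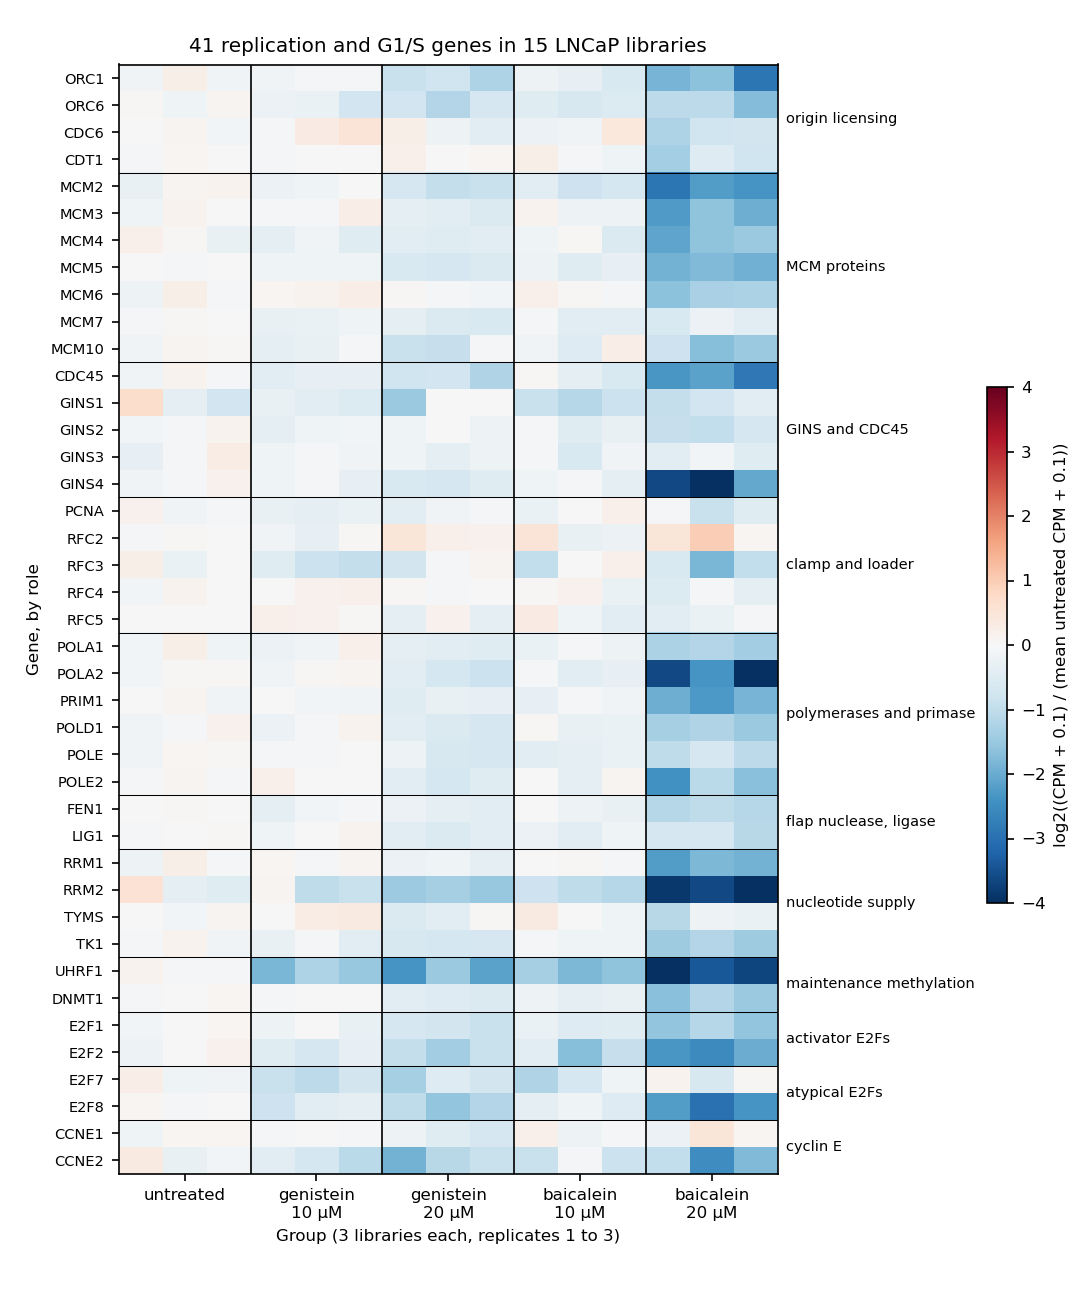
Each cell is 1 LNCaP library (columns, 5 groups of 3) and 1 gene (rows, by role), coloured by log2 of its CPM over the untreated mean, with colours capped at 4 in either direction. The baicalein 20 µM columns are blue for most rows, UHRF1 is blue in all 4 treated groups, and most clamp and loader cells are pale.

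At 10 µM the gene called with each compound was UHRF1, the RING ligase that recruits DNMT1 to newly copied DNA (ENSG00000276043, chromosome 19, 4903080 to 4962154, plus strand). Untreated LNCaP gave 18.95, 16.3 and 16.5 CPM of UHRF1 in its 3 libraries. Genistein 10 µM gave 4.83, 7.31 and 5.96 CPM and baicalein 10 µM gave 6.82, 4.85 and 5.60 CPM. Every treated library lay below every untreated one. UHRF1 fell with genistein 10 µM (2.85-fold lower, log2 fold change -1.51 ± 0.23 (SE), adjusted p = 0.0225) and with baicalein 10 µM (2.999-fold lower, log2 fold change -1.58 ± 0.23 (SE), adjusted p = 0.0100). Both comparisons use the same untreated libraries.

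With genistein 10 µM 1 of the 41 genes was called lower (edgeR quasi-likelihood test, adjusted p under 0.05) and 0 higher, where 0.0765% and 0.0353% of all genes tested were called. At an unadjusted p under 0.05, 5 members were lower and 0 higher, where 1458 of 16985 genes passed in either direction. DESeq2 called 1 lower and 0 higher, against 71 and 58 of 16843 genes. The 3 treated libraries all lay below the untreated ones in 12 members and above them in 1, against 10.2% and 14.1% of all genes. The median log2 fold change of the set was -0.14 against 0.03 over all genes. With baicalein 10 µM 1 was called lower and 0 higher, against 0.312% and 0.0883% of all genes, with a median of -0.22 against 0.03. At an unadjusted p under 0.05, 12 were lower and 0 higher, where 1907 of 16985 genes passed in either direction. DESeq2 called 4 lower and 0 higher, against 311 and 89 of 16129 genes. Libraries did not overlap in 14 members, all lower, against 9.07% of all genes lower and 8.95% higher. The genes nearest to a call had values such as -0.90 for E2F7 with genistein (adjusted p = 0.429) and -0.64 for MCM2 with baicalein (adjusted p = 0.168) on the log2 scale. The UHRF1 call at 10 µM was narrow: adjusted p reached 0.144 for genistein when its replicate 1 was left out, and 0.0702 for baicalein when its replicate 2 was left out.

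With genistein 20 µM 19 of the 41 genes fell and 0 rose, where 8.12% of all genes were called lower and 8.31% higher. The median log2 fold change of the set was -0.49, against 0.05 over all 16985 genes tested, and 39 of the 41 estimates were negative. No member was higher at an unadjusted p under 0.05 by edgeR (0 of 41), where 5170 of 16985 genes passed in either direction. DESeq2 called 0 members higher, against 1384 of 19702 genes. In 27 members the 3 treated libraries all lay below the 3 untreated ones, against 19% of all genes. In 1 member (RFC2) they all lay above, against 21.9%. By role, the calls covered both methylation genes, both activator E2Fs, both Okazaki fragment genes, 3 of 6 polymerase genes, 3 of 7 MCM genes, 2 of 4 licensing genes and 2 of 4 nucleotide genes. None of the clamp and loader genes was called by edgeR, and 0 of 5 had an unadjusted p under 0.05. Falls were mostly under 2-fold: 5 members went beyond it.

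UHRF1 had 3.30, 6.11 and 3.82 CPM with genistein 20 µM (3.89-fold lower, log2 fold change -1.96 ± 0.23 (SE), adjusted p = 0.000155). RRM2, the regulated small subunit of ribonucleotide reductase (ENSG00000171848, chromosome 2, 10120698 to 10211725, plus strand), had 89.4, 46.2 and 42.8 CPM untreated and 21.6, 23.6 and 20.6 CPM with genistein 20 µM. The groups did not overlap, although untreated replicate 1 stood well above the other untreated libraries. RRM2 was 2.71-fold lower, log2 fold change -1.44 ± 0.31 (SE), adjusted p = 0.00845, and without that replicate the log2 fold change was -1.02 with an adjusted p of 0.034. E2F8, an atypical E2F that represses E2F targets late in S phase (ENSG00000129173, chromosome 11, 19224063 to 19241620, minus strand), went from 6.23, 5.62 and 5.80 CPM to 2.86, 1.90 and 2.57 CPM. All 3 treated libraries were below the untreated range (2.41-fold lower, log2 fold change -1.27 ± 0.20 (SE), adjusted p = 0.00121).

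CCNE2, an E-type cyclin that activates the G1/S kinase (ENSG00000175305, chromosome 8, 94879770 to 94896678, minus strand), had 97.5, 61.7 and 70.2 CPM untreated and 20.4, 35.6 and 41.02 CPM with genistein 20 µM. The groups did not overlap but the spread was wide, and the call (2.36-fold lower, log2 fold change -1.24 ± 0.37 (SE), adjusted p = 0.0386) was lost under 8 of 14 alternatives. E2F2, an activator E2F (ENSG00000007968, chromosome 1, 23506438 to 23531233, minus strand), fell from 4.62, 5.32 and 5.97 CPM to 2.69, 1.97 and 2.83 CPM. ORC1, the largest subunit of the origin recognition complex (ENSG00000085840, chromosome 1, 52372829 to 52404423, minus strand), fell from 7.63, 9.84 and 7.64 CPM to 4.43, 4.76 and 3.49 CPM. Neither gene had overlapping groups, and the falls were 2.12-fold (adjusted p = 0.0142) and 1.98-fold (adjusted p = 0.0119).

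The other 13 calls with genistein 20 µM ran from -0.92 for CDC45, a helicase subunit, to -0.35 for the flap nuclease FEN1 on the log2 scale. They included ORC6, MCM2, MCM5 and MCM7, POLA1, POLD1 and POLE, LIG1, TK1, DNMT1 and E2F1. The 22 members not called included E2F7 at -0.83 (adjusted p = 0.0612), POLA2 at -0.66 (0.144), GINS4 at -0.60 (0.297) and PRIM1 at -0.37 (0.0597). They also included CDC6 at -0.11, MCM6 at -0.04 and CDT1 at 0.09. The clamp and loader genes, likewise not called, ran from -0.19 for PCNA to 0.29 for RFC2. The number called lower was 10 without genistein 20 µM replicate 2, 12 without its replicate 3 and 23 by DESeq2. All alternatives left 9 genes called: MCM2, MCM5, CDC45, RRM2, TK1, UHRF1, DNMT1, E2F1 and E2F8.

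With baicalein 20 µM 32 of the 41 genes fell and 0 rose, where 27.8% of all genes were called lower and 29.4% higher. The median log2 fold change of the set was -1.34 against 0.04 over all genes, and 26 members fell more than 2-fold. At an unadjusted p under 0.05, 1 member was higher by edgeR (RFC2), where 10462 of 16985 genes passed in either direction. DESeq2 called 34 lower and 0 higher, against 5245 and 5219 of 22565 genes. In 34 members all treated libraries lay below all untreated ones, against 30.4% of all genes. In 1 member (RFC2) they all lay above, against 30.5%. By role, the falls took in 4 of 4 licensing genes, 7 of 7 MCM genes, 6 of 6 polymerase and primase genes, 3 of 5 CDC45 and GINS genes and 3 of 4 nucleotide genes. Both methylation genes, both Okazaki fragment genes and both activator E2Fs fell, as did E2F8 and CCNE2, while of the clamp and loader genes 1 of 5 (RFC3) fell. The 41 genes took 0.0574% ± 0.0046 (SD, n = 3) of counts, and 0.0657% against 0.163% untreated when mitochondrial counts were left out.

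**Figure D2:**
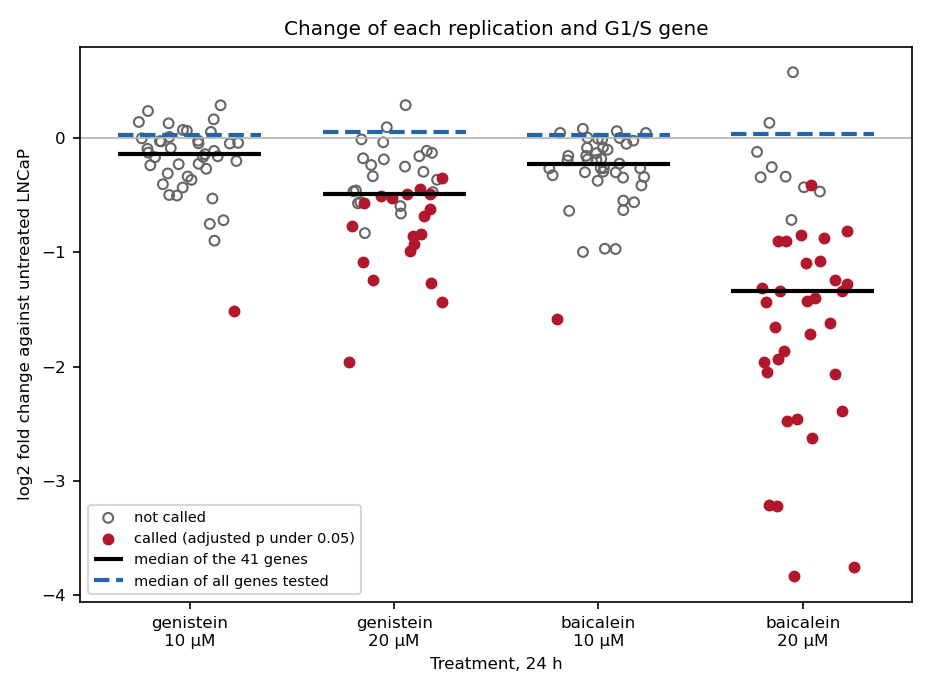
Each point is 1 of the 41 genes, with its log2 fold change against untreated LNCaP on the vertical axis and the 4 treatments along the horizontal axis. Filled points passed an adjusted p under 0.05, black bars are the medians of the 41 genes (-0.14, -0.49, -0.22 and -1.34 from left to right) and dashed bars the medians of all genes tested, which lie between 0.03 and 0.05.

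RRM2 was at 3.96, 4.76 and 3.69 CPM with baicalein 20 µM, the deepest fall of the set (14.3-fold lower, log2 fold change -3.84 ± 0.36 (SE), adjusted p = 1.73e-06), and the log2 fold change was -3.42 without untreated replicate 1. UHRF1 was at 0.966, 1.56 and 1.27 CPM (13.5-fold lower, log2 fold change -3.75 ± 0.27 (SE), adjusted p = 1.65e-07). For both genes every treated library was below the whole untreated range, and below the genistein 20 µM libraries. POLA2, the B subunit of polymerase alpha (ENSG00000014138, chromosome 11, 65261913 to 65305959, plus strand), had 19.6, 21.8 and 22.1 CPM untreated and 1.64, 4.02 and 0.949 CPM with baicalein 20 µM. GINS4, the SLD5 subunit of GINS (ENSG00000147536, chromosome 8, 41529218 to 41545030, plus strand), had 11.7, 12.6 and 14.7 CPM untreated and 0.966, 0.328 and 3.06 CPM. Neither gene overlapped between groups, though the treated libraries of each varied several fold among themselves. POLA2 was 9.30-fold lower, log2 fold change -3.22 ± 0.34 (SE), adjusted p = 4.52e-06, and GINS4 was 9.29-fold lower, log2 fold change -3.22 ± 0.44 (SE), adjusted p = 4.34e-05. Leaving out single libraries moved POLA2 between -2.88 and -4.0 and GINS4 between -2.70 and -4.35 on the log2 scale.

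E2F8 stood at 1.16, 0.657 and 1.05 CPM with baicalein 20 µM (6.18-fold lower, log2 fold change -2.63 ± 0.23 (SE), adjusted p = 8.97e-07). MCM2, a subunit of the replicative helicase (ENSG00000073111, chromosome 3, 127598410 to 127622436, plus strand), went from 55.5, 72.9 and 73.9 CPM untreated to 9.08, 14.2 and 12.97 CPM (5.57-fold lower, log2 fold change -2.48 ± 0.18 (SE), adjusted p = 2.07e-07). Both genes were below the untreated range in every treated library. CDC45 (ENSG00000093009, chromosome 22, 19479457 to 19520612, plus strand), which joins MCM and GINS in the active helicase, went from 8.20, 10.1 and 8.85 CPM to 1.74, 1.97 and 1.16 CPM, and E2F2 from 4.62, 5.32 and 5.97 CPM to 0.966, 0.821 and 1.27 CPM. Again no libraries overlapped between the groups. Their folds were 5.49 (adjusted p = 1.16e-06) and 5.23 (adjusted p = 1.87e-05).

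The proteins MCM2 to MCM7 form the ring that unwinds DNA. Among the MCM genes the falls ran from 5.57-fold for MCM2 to 1.33-fold for MCM7, whose call was lost without baicalein 20 µM replicate 1 (adjusted p = 0.0524). MCM5 (ENSG00000100297, chromosome 22, 35400134 to 35425431, plus strand) varied little between replicates: 28.6, 26.96 and 28.5 CPM untreated, 18.2, 17.7 and 18.8 with genistein 20 µM and 7.54, 8.13 and 7.38 with baicalein 20 µM. The 3 sets of libraries were fully separated, and MCM5 was 1.54-fold lower, log2 fold change -0.62 ± 0.09 (SE), adjusted p = 0.000709 with genistein and 3.64-fold lower, log2 fold change -1.86 ± 0.10 (SE), adjusted p = 9.53e-09 with baicalein. Among the polymerase genes the smallest fall was that of POLE, the catalytic subunit of polymerase epsilon (-0.90), and PRIM1, the catalytic primase subunit, fell 4.14-fold. Among the licensing factors the log2 fold change was -2.06 for ORC1, -1.24 for ORC6, -0.90 for CDC6 and -0.85 for CDT1. RRM1, the large subunit of ribonucleotide reductase, fell 3.90-fold, and DNMT1, the maintenance methyltransferase, had a log2 fold change of -1.43 (adjusted p = 5.19e-07).

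In 9 of the 41 genes no change was called with baicalein 20 µM. PCNA, the sliding clamp, had 171, 138 and 147 CPM untreated and 148, 81.9 and 108 CPM treated, with 1 treated library inside the untreated range. PCNA had a log2 fold change of -0.43 (95% interval -0.84 to -0.02, adjusted p = 0.0694). TYMS, the enzyme that makes thymidylate, had 42.4, 39.4 and 45.4 CPM untreated and 19.5, 36.9 and 35.5 CPM treated (-0.47, 95% interval -0.97 to 0.04, adjusted p = 0.104). RFC2, a clamp loader subunit, had 15.3, 16.99 and 16.6 CPM untreated and 22.99, 32.4 and 17.3 CPM treated. All 3 treated libraries were above the untreated ones, with an estimate of 0.58 (95% interval 0.06 to 1.09, adjusted p = 0.0545) that reached an adjusted p of 0.016 without baicalein 20 µM replicate 3. CCNE1 had 11.2, 13.5 and 13.5 CPM untreated and 10.8, 17.7 and 13.3 CPM treated, and E2F7 had 9.66, 7.09 and 7.30 and 8.89, 5.09 and 8.23 CPM. Both pairs of groups overlapped, with intervals of -0.26 to 0.52 for CCNE1 and -0.72 to 0.48 for E2F7 on the log2 scale. GINS1, GINS3, RFC4 and RFC5 were also not called, with estimates from -0.72 to -0.25. The falls without MCM7 and RFC3, 30 in all, were called under every alternative.

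**Figure D3:**
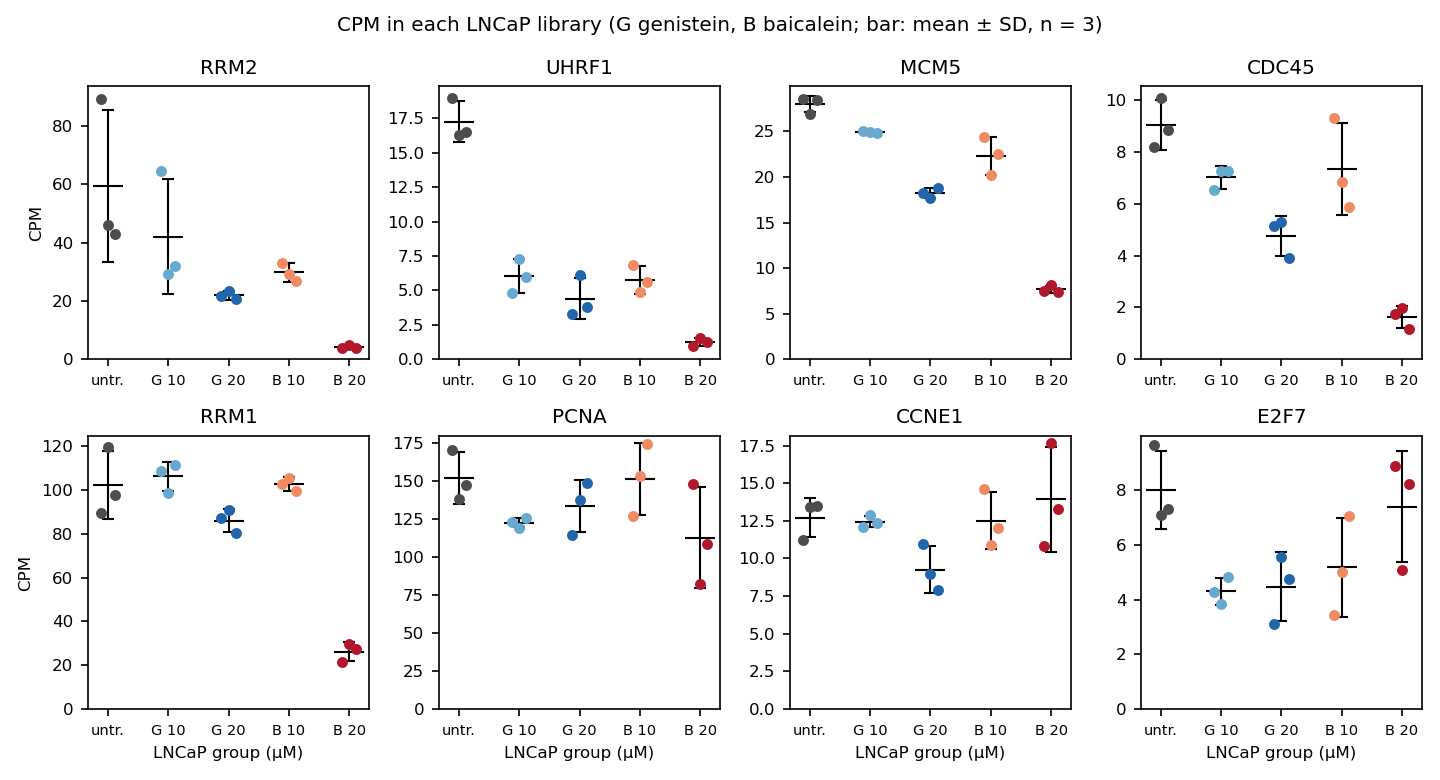
CPM (vertical axes, each from 0) of 8 genes in every LNCaP library, with the mean and SD of 3 libraries; the horizontal axis gives the group, with G for genistein and B for baicalein in µM. UHRF1 is lower in all treated groups, RRM1 stands lowest with baicalein 20 µM (from 89.5 to 120 CPM untreated to 21.5 to 29.6), and PCNA, CCNE1 and E2F7 overlap between untreated and baicalein 20 µM libraries.

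The dose step asks whether 20 µM differed from 10 µM of the same compound. For genistein 11 of the 41 genes were lower at 20 than at 10 µM and 0 higher, against 7.63% and 5.59% of all genes, with a median log2 fold change of -0.41 against 0.03. At an unadjusted p under 0.05, 23 were lower and 0 higher, where 4884 of 16985 genes passed in either direction. DESeq2 called 15 and 0, against 1704 and 1177 of 18271 genes. MCM5 went from 25, 24.96 and 24.8 CPM at 10 µM to the values given above at 20 µM, a 1.37-fold fall (adjusted p = 0.00634). E2F1, an activator of S-phase genes, had 18.9, 21.6 and 17.5 CPM at 10 µM and 13.5, 13.1 and 11.7 CPM at 20 µM. DNMT1 had 80.1, 83.9 and 86.8 CPM and 62.7, 59.9 and 57.2 CPM, and MCM2 had 56.8, 59.5 and 68.8 CPM and 42.3, 34.8 and 36.3 CPM. None of these 4 genes overlapped between doses, and the falls were 1.52-fold for E2F1 (adjusted p = 0.0139), 1.40-fold for DNMT1 (0.0161) and 1.63-fold for MCM2 (0.0168). For UHRF1 the step was not called (-0.45, 95% interval -0.96 to 0.06, adjusted p = 0.229). The genistein count moved with the setting and was 1 without the filter on low counts. It was also 1 to 7 when any 1 of the 6 libraries was left out, with 1 without genistein 20 µM replicate 3.

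For baicalein 31 of the 41 genes were lower at 20 than at 10 µM and 0 higher, against 27.5% and 26.8% of all genes, with a median of -1.09 against 0. At an unadjusted p under 0.05, 34 were lower and 1 higher, where 10091 of 16985 genes passed in either direction. By DESeq2 31 and 0 passed, against 4789 and 4983 of 22565 genes. MCM5 had 24.4, 20.2 and 22.5 CPM at 10 µM, and its fall to 20 µM was 2.90-fold (adjusted p = 5.5e-08). RRM1 went from 103, 106 and 99.3 CPM to 21.5, 29.6 and 27.5 CPM, 3.91-fold lower (adjusted p = 1.61e-07). PRIM1 (ENSG00000198056, chromosome 12, 56730438 to 56752374, minus strand) went from 11.2, 13.3 and 12.6 CPM to 3.57, 2.79 and 3.80 CPM, 3.65-fold lower (adjusted p = 2.07e-07). For each of these 3 genes every library at 20 µM lay below every library at 10 µM. MCM3 went from 41, 32.2 and 32.1 CPM to 7.63, 12.1 and 9.49 CPM (3.60-fold, adjusted p = 1.35e-06), and UHRF1 fell a further 4.50-fold.

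Baicalein belongs to the flavones and genistein to the isoflavones, isomers whose phenyl ring is attached at another carbon of the core and whose hydroxyl groups sit at other places. The 2 compounds were compared directly with each other at each dose. The untreated libraries are not part of this contrast, but they share the fit that gave its scaling and estimate of spread. At 10 µM 0 of the 41 genes differed by edgeR, against 0% of all genes called lower and 0.00589% called higher with genistein. DESeq2 called 0 members, against 8 lower and 64 higher of 12562 genes. An unadjusted p under 0.05 by edgeR was reached by 1312 of 16985 genes in either direction. Among the 41 it was seen for 3 members, all higher with genistein. These were MCM2 at 0.51 (95% interval 0.14 to 0.88), POLE at 0.30 and DNMT1 at 0.27 on the log2 scale, with adjusted p of 0.638, 0.638 and 0.638. The MCM2 libraries were 56.8, 59.5 and 68.8 CPM with genistein and 50.4, 38.2 and 41.4 CPM with baicalein, without overlap. The 95% intervals lay within 2-fold for 37 members and within 1.5-fold for 21. For UHRF1 the difference was 0.07 (-0.43 to 0.58). These intervals limit the difference and do not show that the compounds act alike.

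At 20 µM 27 of the 41 genes were higher with genistein than with baicalein and 1 was lower, against 25.4% and 23.3% of all genes. The median difference was 0.79 on the log2 scale, against 0.02 over all genes, and 28 members had every genistein library above every baicalein library, against 28.2% of all genes. MCM5, with library values given above, was 2.37-fold higher, log2 fold change 1.25 ± 0.10 (SE), adjusted p = 5.57e-07. PRIM1 had 10.1, 11.4 and 11.1 CPM with genistein and 3.57, 2.79 and 3.80 CPM with baicalein (3.21-fold higher, log2 fold change 1.68 ± 0.14 (SE), adjusted p = 8.35e-07). RRM1 had 87.03, 90.8 and 80.1 CPM with genistein and 21.5, 29.6 and 27.5 CPM with baicalein (3.28-fold higher, log2 fold change 1.71 ± 0.14 (SE), adjusted p = 8.39e-07). MCM6 (ENSG00000076003, chromosome 2, 135839626 to 135876443, minus strand) had 69.9, 65.4 and 62.95 CPM and 21.7, 27.6 and 27.8 CPM (2.57-fold higher, log2 fold change 1.36 ± 0.14 (SE), adjusted p = 6.35e-06). For all 4 genes every genistein library lay above every baicalein library. The largest differences were those of GINS4 (2.62), POLA2 (2.56) and RRM2 (2.40).

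CCNE1 went the other way, with 10.9, 8.97 and 7.90 CPM under genistein 20 µM against 10.8, 17.7 and 13.3 CPM under baicalein (1.51-fold lower, log2 fold change -0.59 ± 0.18 (SE), adjusted p = 0.0168). Its libraries overlapped by 1 value, and the call was lost when genistein 20 µM replicate 2 or 3 or baicalein 20 µM replicate 2 was dropped, and when only the compared groups were fitted. No difference was called for 13 members. Their estimates included MCM7 at -0.12 (95% interval -0.39 to 0.16), PCNA at 0.24 (-0.17 to 0.66), TYMS at 0.17 (-0.33 to 0.68) and E2F7 at -0.71 (-1.33 to -0.09). The interval lay within 2-fold for 14 of the 41 members. KLK3, FOLH1 and the mitochondrial share moved with this contrast too, and their part in it was not tested.

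**Figure D4:**
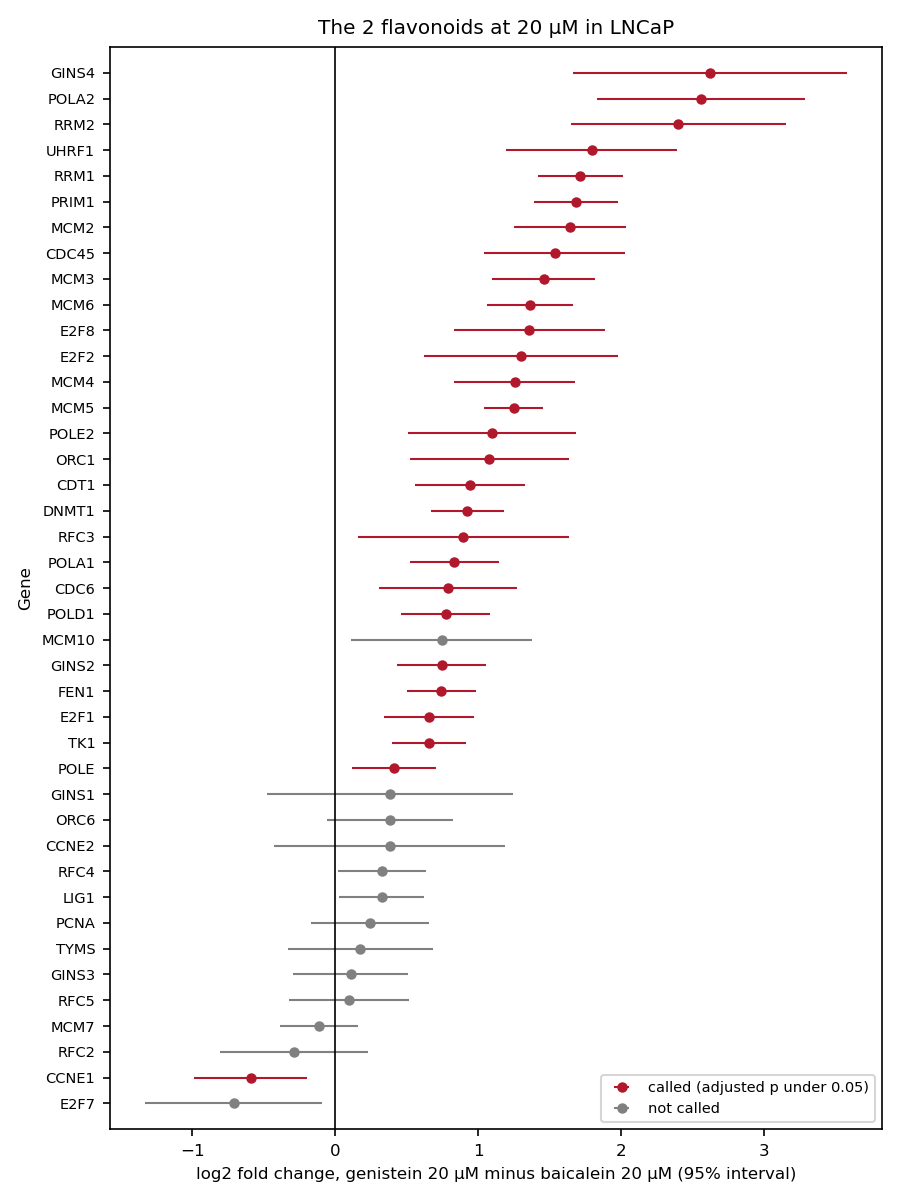
Points give the log2 fold change of each gene, genistein 20 µM minus baicalein 20 µM, on the horizontal axis, and lines its 95% interval, with genes sorted on the vertical axis. Red marks the 28 genes with an adjusted p under 0.05: 27 lie right of 0 (higher with genistein) and CCNE1 lies left.

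The step from 10 to 20 µM differed between the compounds for 21 of the 41 genes, in all 21 with a less negative step for genistein, against 17.3% of all genes called in that direction and 15.5% in the other, where no member was called. By edgeR 1 member in the other direction reached an unadjusted p under 0.05, where 7213 of 16985 genes did so in either direction. The DESeq2 counts were 21 and 0, against 2974 and 2849 of 20418 genes. The difference in step, genistein minus baicalein, had a median of 0.75 over the set and 0.06 over all genes. It was 1.66 ± 0.19 (SE) for RRM1 (adjusted p = 4.14e-05), 1.59 ± 0.18 for PRIM1 (4.36e-05), 1.09 ± 0.13 for MCM5 (6.14e-05) and 1.26 ± 0.19 for MCM6 (0.000381). MCM6 shows the pattern in its libraries. It had 58.5, 80.5 and 64.3 CPM untreated, 71.7, 74.3 and 81.9 and 69.9, 65.4 and 62.95 CPM with genistein 10 and 20 µM, 78.01, 70.4 and 63.6 CPM with baicalein 10 µM and 21.7, 27.6 and 27.8 CPM with baicalein 20 µM. The last group was the one that lay apart.

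Untreated PC-3 carried more of these transcripts than untreated LNCaP. In PC-3 36 of the 41 genes were higher and 2 lower, against 37% and 37.9% of all 17259 genes tested, and 27 rose more than 2-fold. The median log2 fold change was 1.42, against -0.02 over all genes, and the 41 genes took 0.339% ± 0.0132 (SD, n = 3) of PC-3 counts. All PC-3 libraries lay above all LNCaP libraries in 36 members and below them in 2, against 38.6% and 40% of all genes. POLE2, the accessory subunit of polymerase epsilon (ENSG00000100479, chromosome 14, 49643555 to 49688422, minus strand), had 42.97, 40.03 and 45.6 CPM in PC-3 and 4.26, 4.78 and 4.31 CPM in LNCaP scaled together with PC-3. TK1, the thymidine salvage kinase (ENSG00000167900, chromosome 17, 78174091 to 78187233, minus strand), had 294, 309 and 329.6 and 32.4, 37.3 and 30.4 CPM. Both were far apart with tight replicates: POLE2 was 9.62-fold higher, log2 fold change 3.27 ± 0.12 (SE), adjusted p = 1.16e-06, and TK1 was 9.33-fold higher, log2 fold change 3.22 ± 0.12 (SE), adjusted p = 1.44e-06. E2F7 (ENSG00000165891, chromosome 12, 77021248 to 77065569, minus strand) had 70.1, 58.2 and 48.3 CPM in PC-3 and 9.33, 6.93 and 7.10 CPM in LNCaP (7.54-fold higher, log2 fold change 2.91 ± 0.19 (SE), adjusted p = 1.31e-05). TYMS (ENSG00000176890, chromosome 18, 657653 to 673578, plus strand) had 284, 274 and 288 and 40.97, 38.5 and 44.2 CPM (6.83-fold higher, log2 fold change 2.77 ± 0.10 (SE), adjusted p = 1.32e-06).

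RRM2 had 264, 501 and 274 CPM in PC-3 against 86.4, 45.1 and 41.7 CPM in LNCaP (log2 fold change 2.59 ± 0.39 (SE), adjusted p = 0.000807), with PC-3 replicate 2 well above the others. GINS2, the PSF2 subunit of GINS (ENSG00000131153, chromosome 16, 85676198 to 85690073, minus strand), had 40.5, 38.7 and 53.2 and 10.5, 11.2 and 12.6 CPM (3.86-fold higher, log2 fold change 1.95 ± 0.16 (SE), adjusted p = 3.49e-05). Neither gene overlapped between the lines. The 2 genes lower in PC-3 were CCNE1 (ENSG00000105173, chromosome 19, 29811991 to 29824312, plus strand) and POLE (ENSG00000177084, chromosome 12, 132623753 to 132687376, minus strand). CCNE1 had 4.54, 5.31 and 5.74 CPM in PC-3 and 10.8, 13.1 and 13.1 in LNCaP (2.38-fold lower, log2 fold change -1.25 ± 0.16 (SE), adjusted p = 0.000323). POLE had 24.9, 31.5 and 33.2 CPM in PC-3 and 47.1, 54.9 and 53.6 in LNCaP (1.73-fold lower, log2 fold change -0.79 ± 0.14 (SE), adjusted p = 0.00139). POLE and POLE2, subunits of 1 polymerase, thus stood on opposite sides. MCM2 had a log2 fold change of -0.00 (95% interval -0.34 to 0.34, adjusted p = 0.996), E2F2 had a log2 fold change of 0.08 (95% interval -0.34 to 0.50, adjusted p = 0.693) and CCNE2 had a log2 fold change of 0.67 (95% interval -0.09 to 1.43, adjusted p = 0.0935), and these 3 were not called.

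All licensing, CDC45, GINS, clamp, loader, Okazaki fragment, nucleotide, methylation and atypical E2F genes were higher in PC-3, as were 6 of 7 MCM genes. Per kilobase, PCNA led in PC-3 at 283 ± 15.3 CPM per kb, then TK1 at 167 ± 9.50 and TYMS at 114 ± 2.85, and E2F2 was lowest. The CDT1 difference (0.35, adjusted p = 0.0346) was lost under 8 of 14 alternatives and was -0.09 once a trend with GC content and length was removed. That correction put the median of the set at 1.08 and that of all genes at -0.20, against 1.42 and -0.02. The lines differ in origin, which cannot be told apart from any other difference between them.

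**Figure D5:**
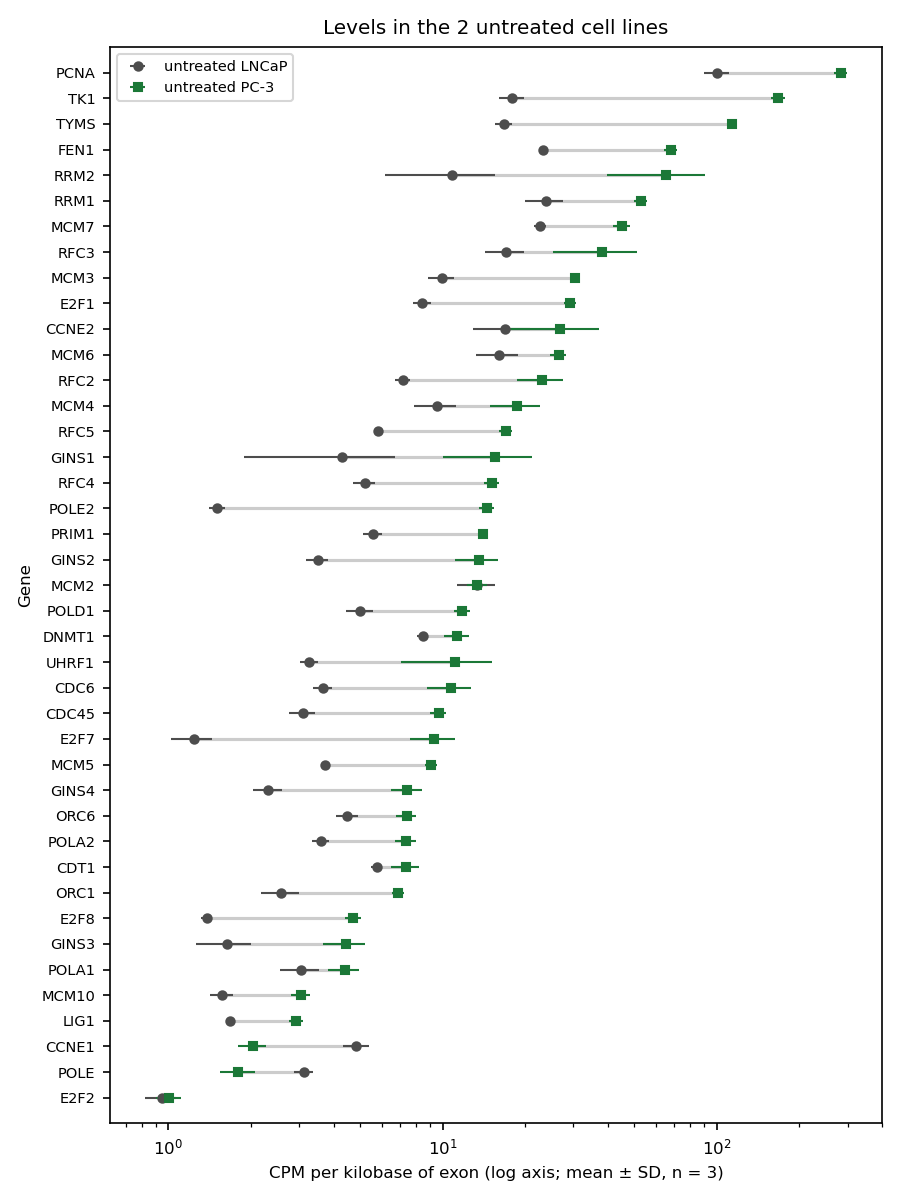
Mean CPM per kilobase of exon (horizontal, log axis; bars are SD, n = 3) of each gene (vertical, sorted by PC-3 level) in untreated LNCaP (circles) and untreated PC-3 (squares), scaled together. Squares lie right of circles except for CCNE1 and POLE, which are lower in PC-3, and MCM2 and E2F2, which nearly coincide.

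Other genes of the pathway were read from lists of the remaining replication genes (42), G1/S controllers (20) and G2/M genes (10). Over all genes 8.12% were lower and 8.31% higher with genistein 20 µM, 27.8% and 29.4% with baicalein 20 µM, and 37.9% and 37% in PC-3. Of the 42 replication genes 9 were lower with genistein 20 µM, with a median log2 fold change of -0.14 against 0.05 over all genes. They were led by CLSPN, a checkpoint adaptor (-1.14, adjusted p = 0.000929), ASF1B, a histone chaperone (-0.92, 0.00223) and CHAF1A of chromatin assembly factor 1 (-0.58, 0.00726). With baicalein 20 µM 19 were lower and 6 higher, with a median of -0.32 against 0.04 over all genes. CLSPN fell 19.9-fold (adjusted p = 1.23e-08), ASF1B 4.39-fold and TIMELESS, a fork protection factor, 3.07-fold, while WDHD1 (0.74), ORC4 (1.03) and SLBP (1.18) rose. In PC-3 24 were higher and 4 lower than in LNCaP, with a median of 0.81 against -0.02 over all genes. Those with the smallest p were RNASEH2A (2.22), DONSON (2.53) and ASF1B (2.43).

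Among the 20 G1/S controllers 3 were lower and 2 higher with genistein 20 µM, and 7 were lower and 4 higher with baicalein 20 µM. Over all genes the shares were 8.12% and 8.31% with genistein and 27.8% and 29.4% with baicalein. Whether the counts among these 20 genes differ from those shares was not tested. CDKN1A, the kinase inhibitor p21, had 156, 165 and 171 CPM untreated, 159.9, 336 and 349.7 CPM with genistein 20 µM and 978, 1380 and 1087 CPM with baicalein 20 µM. 1 genistein library lay within the untreated range, and the baicalein libraries were all above it. CDKN1A was 1.72-fold higher with genistein (adjusted p = 0.0392) and 6.99-fold higher with baicalein (adjusted p = 1.02e-06). CDKN2A was also higher with each compound at 20 µM (0.70 and 1.27), and E2F6, a repressor E2F, rose with baicalein (1.94). Other kinase inhibitors in the list did not follow CDKN1A. CDKN2C had 15.3, 12.8 and 15.3 CPM untreated and was lower with baicalein 20 µM, at 3.09, 5.09 and 2.425 CPM. CDKN1B overlapped, with 139, 96.5 and 87.8 CPM untreated and 305.5, 118 and 130.9 CPM with baicalein 20 µM. The D-type cyclin CCND1 was lower (-0.66 with genistein, -2.20 with baicalein), as was MYBL2, a transcription factor of proliferating cells (-0.57 and -1.87). In PC-3 12 of the 20 were higher and 4 lower than in LNCaP, against 37% and 37.9% of all genes, with CDKN1A at -1.36. CDKN1B was also lower in every PC-3 library, at 26.9 to 47.05 CPM against 85.5 to 134.2 CPM in LNCaP. CDKN2A and CDKN2C went the other way. PC-3 had 100, 169 and 217 CPM of CDKN2A, against 9.38, 10.9 and 11.1 CPM in LNCaP. For CDKN2C the values were 58.05, 55.4 and 60.5 CPM against 14.8, 12.5 and 14.9 CPM. Of the 10 G2/M genes 2 fell with genistein 20 µM against 8.12% of all genes (PLK1 -0.50, MKI67 -0.59), all 10 fell with baicalein 20 µM against 27.8% (median -1.71, MKI67 -2.76), and 9 were higher in PC-3 against 37%. The part of these genes in the results above was not tested.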

How the data were processed

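Poly(A) RNA of 18 libraries was extracted with TRIzol and prepared with a kit that does not mark strand, per the labels' protocols. The submitters' processing notes name fastp, STAR 2.7.6a, featureCounts 1.6.4, DESeq2 1.20.0 and GRCh38; the strand setting and annotation release are not given in the sources used here. The deposited table holds raw read counts per gene, made by the authors with no normalization. The 18 FPKM columns, whose headers carry baicalein 20 µM 6 times and 10 µM 0 times, were left out, and the 13 coded comparisons were not used.

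Groups came from the labels, which give no batch. Counts were tested with edgeR 4.0.16 in R 4.3.3 (quasi-likelihood, robust, TMM scaling, low-count filter), with 1 fit over the 15 LNCaP libraries for 9 comparisons (16985 genes, 10 residual degrees of freedom) and a second over the 6 untreated libraries for PC-3 against LNCaP (17259 genes, 4 residual degrees of freedom). A gene was called at a Benjamini-Hochberg adjusted p under 0.05 over all genes tested. CPM were scaled within each fit. Exon lengths and overlaps came from GENCODE 29, which matched 58228 of 63241 gene IDs with 99.3% of counts. Library values are given for called members with the largest fold change (up to 6 per direction) or, for comparisons between treatments, up to 4 with the smallest adjusted p. Of the 6 LNCaP markers, 2 are given and the others are not reported here. The members, lists and rules were chosen with earlier results of these data known. No replicates were duplicates: the chi-square per degree of freedom between replicates was 12.0 to 97.6. Coordinates are those deposited (GRCh38), and they equal GENCODE 29 for 12 of the 41 genes.

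Alternatives were other size factors, no low-count filter, DESeq2 1.42.0, a GC and length trend, mitochondrial genes removed, a replicate block, compared groups only, and each replicate left out. Counts were also simulated for all LNCaP groups, with 200 of 16985 genes changed in the baicalein 20 µM libraries. In the test of baicalein 20 µM against untreated LNCaP, 48% of 2-fold and 83% of 4-fold changes were recovered, with 6.43% of calls false. For PC-3 against LNCaP (200 changed of 17259 genes) 43% and 88% were recovered, with 7.75% false. In the data 9708 and 12924 genes were called in these comparisons, so the recovered shares do not give their power.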

Additional observations from a re-analysis of the deposited data

Results flagged for a closer look

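The response to dose differed between the compounds by a direct test of the difference for 21 of the 41 genes. In each of the 21 the step from 10 to 20 µM was less negative with genistein than with baicalein. The difference between the steps, genistein minus baicalein on the log2 scale, was 1.66 for RRM1, 1.59 for PRIM1, 1.09 for MCM5 and 1.26 for MCM6.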

How the results depend on the processing

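Each alternative was compared with the counts in the text. With 10 µM genistein the number lower was 0 under the replicate block, and leaving out single libraries gave 0 to 1. With 10 µM baicalein it was 4 by DESeq2, 2 with the GC and length trend removed, and 0 to 1 with single libraries left out. With genistein 20 µM single libraries left 10 to 17 lower. With baicalein 20 µM they left 32 to 33 lower and 0 to 1 higher, and 1 was higher with the GC and length trend removed, with or without the block. The genistein step gave 1 without the low-count filter, 6 under the block and 1 to 7 without single libraries. The baicalein step gave 29 to 32 lower and 0 to 1 higher without single libraries, and 1 higher with the trend removed, with or without the block, and 26 lower with only the compared groups. Between the compounds at 20 µM the number lower with genistein was 2 with RLE size factors, 3 with the trend removed, 3 with trend and block, 0 with only the compared groups, and 0 to 1 without single libraries, which left 25 to 28 higher. In the dose interaction the number lower was 2 with the trend removed, 1 with trend and block, and 0 to 1 without single libraries, which left 19 to 23 higher. PC-3 gave 2 lower and 34 to 36 higher without single libraries, 33 higher without the low-count filter and 34 with the trend removed. The CDT1 log2 fold change, untreated PC-3 against untreated LNCaP, was 0.35 and turned to -0.0867 with the trend removed and to -0.0892 with trend and block. The cause of these shifts was not tested.

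Replicate numbers did not pair libraries across all groups: deviations of same-numbered libraries correlated at -0.577 to 0.544, and 10 of 33 pairs exceeded 0.1. For replicate 1 they were 0.284 to 0.383 among untreated, genistein 10 µM and baicalein 20 µM. They were 0.544 between baicalein 10 µM and genistein 20 µM, and -0.577 to -0.359 across these LNCaP sets. This shared spread was not in the main model, and its part in the results was not tested. The replicate block gave 14 genes lower with genistein 20 µM, 32 with baicalein 20 µM, 30 in the baicalein step and 26 higher between compounds, 1 lower with baicalein 10 µM, 20 in the interaction, and 36 higher and 2 lower in PC-3. Over all genes, the share of calls that were lower with genistein 20 µM was 49.4%, and 61.0% with mitochondrial genes removed, where 22 members were lower. For the 10 µM doses that share moved from 68.4% to 57.4% (genistein) and from 77.9% to 57.3% (baicalein) with the trend removed, and for baicalein to 33.3% of 9 calls with only the compared groups fitted and to 92.6% without the low-count filter.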
